A study of Mus musculus with 16 samples.

Results

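Prostaglandin synthesis and sensing were followed through 10 genes: Pla2g4a, Ptgs1, Ptgs2, Ptges, Ptges2, Ptgis, Ptgfr, Ptger3, Ptger4 and Hpgd. All 10 were found by their symbols among the 20295 genes of an RNA-seq count table from mouse brown adipocytes, and 8 of them held enough reads to be tested. Ptgfr and Ptges were picked because their response to SR-3420 changed with triacsin C in these same samples, so their values in those groups are given as a description with no test. The other 8 genes were taken for their place in the pathway, and 6 of these were tested.

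The cells derive from brown preadipocytes that SV40 large T antigen keeps dividing, were differentiated in culture and were used at day 7, and all groups are of 1 wild-type line, which limits them as a model of brown fat. They were pretreated for 1 h with vehicle, with 5 µM triacsin C (TC), which inhibits the long-chain acyl-CoA synthetases that activate fatty acids, or with 50 µM etomoxir (ETO), which inhibits the carnitine palmitoyltransferase that lets them enter mitochondria for oxidation. SR-3420 or its vehicle was then present for 3 h. SR-3420 is a ligand of ABHD5, the co-activator of the triglyceride lipase ATGL, and starts lipolysis without a β-adrenergic agonist. The labels give 10 µM SR-3420, whereas the study's figure legends give a higher dose. The 16 samples fall into vehicle and SR-3420, with 2 samples each, and TC, TC + SR-3420, ETO and ETO + SR-3420, with 3 samples each. The study names its samples biologically independent experiments. Vehicle replicate 1 and SR-3420 replicate 2 were not analysed here.

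Prostaglandins arise when a phospholipase frees arachidonic acid from membrane phospholipids, a cyclooxygenase turns it into an unstable endoperoxide, and a terminal synthase turns that into a particular prostaglandin. The products leave the cell, act on G protein-coupled receptors nearby and are inactivated by a dehydrogenase. In fat tissue, prostaglandins are known as local signals that restrain lipolysis through Gi-coupled receptors and that act on the differentiation of fat cell precursors.

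Read totals ranged from 9452861 to 25670624 counts per sample, with a median of 13602886. The brown adipocyte label was checked against 12 marker genes. Fabp4, Adipoq, Plin1, Lipe and Pnpla2, which any fat cell expresses, were abundant, and Pparg held 1057 to 4230 counts per sample. Cidea held 100 to 599 counts, Elovl3 85 to 312, Prdm16 77 to 694 and Ppargc1a 207 to 1302. The thermogenic marker Ucp1 was low in every group, at 5 to 57 counts, and Dio2 was close to absent, at 0 to 2 counts. Among macrophage markers, Emr1 held at most 3 counts and Ptprc at most 16 in any sample, and the endothelial marker Pecam1 at most 13. The summed normalised count of 6 macrophage markers, most of it Cd68, ranged from 60.4 to 144 in vehicle and SR-3420, 227 to 252 in TC, 118 to 131 in TC + SR-3420 and 78.7 to 134 in both etomoxir groups, and that of 4 endothelial markers from 11.7 to 48.8 over all samples. The summed levels of a pair of lists differed with SR-3420 in each arm, without overlap. The summed normalised count of the 12 fat cell markers was 156288 to 183511 in SR-3420 against 202306 to 233059 in vehicle, 91627 to 94616 in TC + SR-3420 against 224320 to 248010 in TC, and 83479 to 137903 in ETO + SR-3420 against 198285 to 219814 in ETO. Fabp4 was the largest part of this sum in every group. In SR-3420 against vehicle, its mean was 65494 against 95327 and that of Adipoq 26990 against 40870. Prdm16, Pparg, Plin1 and Pnpla2 also had lower means there, whereas Ucp1, Cidea, Dio2, Elovl3, Ppargc1a and Lipe had higher means. The sum of 6 preadipocyte and fibroblast markers, most of it Col1a1, was 36254 to 50169 in SR-3420 against 19665 to 22410 in vehicle, 38284 to 59505 in TC + SR-3420 against 23864 to 31257 in TC, and 29249 to 60339 in ETO + SR-3420 against 13345 to 27504 in ETO. With SR-3420 against vehicle, within TC and within ETO, 1, 6 and 5 of the 11 tested fat cell markers fell and 0, 1 and 0 rose, while 0, 2 and 5 of the 6 preadipocyte markers rose and 0 fell. Over all genes tested, 2.79%, 19.7% and 12.8% fell and 4.75%, 17.3% and 12.5% rose in these comparisons. In such bulk samples, fewer cells of a type and less RNA per cell cannot be told apart, and the part of these shifts in the results that follow was not tested.

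The promoters of the 4 genes on which the results turn are shown so that they can be set side by side: Ptgs1 and Ptgs2, which rose together in every arm, and Ptges and Ptgfr, the picked pair. Each line gives 70 bases before and 30 after the transcription start in RefSeq on GRCm38.p6, a later build than the mm9 of the counts, read 5′ to 3′ along the gene. Capitals mark an E-box, CACGTG.

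Ptgs1 (chr2:36230356-36230455, plus strand): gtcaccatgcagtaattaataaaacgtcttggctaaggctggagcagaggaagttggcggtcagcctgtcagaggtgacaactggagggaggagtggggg
Ptgs2 (chr1:150099961-150100060, plus strand): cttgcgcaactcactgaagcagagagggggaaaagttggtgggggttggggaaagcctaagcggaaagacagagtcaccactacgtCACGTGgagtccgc
Ptges (chr2:30903268-30903367, minus strand): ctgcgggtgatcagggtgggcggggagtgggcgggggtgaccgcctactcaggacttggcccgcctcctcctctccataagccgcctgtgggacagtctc
Ptgfr (chr3:151837499-151837598, minus strand): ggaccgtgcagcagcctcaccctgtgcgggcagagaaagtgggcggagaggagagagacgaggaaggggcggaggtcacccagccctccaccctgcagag

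The full windows, from 250 bases before to 50 after the start, were searched on both strands for the cAMP response element TGACGTCA, AP-1 TGANTCA, the direct repeat DR1 that PPAR binds with RXR, the E-box CACGTG, the NF-kB motif, ATF4 TTGCATCA and the NF-Y box CCAAT. These occur in 1.79%, 7.81%, 0.0396%, 7.15%, 0.411%, 0.895% and 37.4% of 32851 mouse promoters, in that order. A promoter was matched for 9 of the 10 genes, with a pair of promoters for Pla2g4a. Ptgs2 held the E-box from base 17 to base 22 after its start, Ptges2 held one from 77 to 72 bases before, Ptger4 held CCAAT from 75 to 71 bases before, and the second Pla2g4a promoter held CCAAT from base 10 to base 14. No 2 of these matches overlapped. The letters of the other motifs were not in any of these windows, and Ptgs1, Ptges and Ptgfr held no match. The Ptgs2 window had 16 CpG and 59.3% GC and the Ptgs1 window 6 CpG and 50.7% GC, against medians of 7 CpG and 52.7% over all promoters.

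Levels were compared between genes as normalised counts, which are counts divided by DESeq2 size factors, per kilobase of counted length. In vehicle the order was Ptges2 at 690 ± 287 per kilobase (SD, n = 2), Ptgs1 at 223 ± 6.08, Ptgs2 at 177 ± 13.4, Pla2g4a at 83.6 ± 24.9, Ptgfr at 69.7 ± 12.2, Ptges at 51.9 ± 6.06, Ptger4 at 51.1 ± 6.18 and Ptgis at 11.1 ± 2.21. Pla2g4a overlapped Ptgfr and Ptges overlapped Ptger4 in that order, and no other neighbours down to Ptgis overlapped. Ptger3 and Hpgd were each under 1 per kilobase. This order rests on the length used: per kilobase of exonic length from the annotation, Ptgs1 was at 164, below Ptgs2 at 177, and Pla2g4a at 37.2 lay below both Ptgfr and Ptges, with Ptger4 at 25.6. The head of the order was Ptges2 at 707 ± 223, Ptgs2 at 367 ± 26.4 and Ptgs1 at 291 ± 31.5 in TC, with no overlap, and Ptges2 at 558 ± 149, Ptgs1 at 262 ± 17.4 and Ptgs2 at 207 ± 70.3 in ETO, where the last pair overlapped (n = 3 each). Ptgs2 stood at the head of the order in all 3 groups given SR-3420, at 801 ± 292 per kilobase in SR-3420 (n = 2), 3009 ± 567 in TC + SR-3420 (n = 3) and 1435 ± 435 in ETO + SR-3420 (n = 3). In SR-3420 alone it overlapped Ptges2, at 728 ± 303, and in the groups with an inhibitor it lay above every other gene of the list.

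**Figure D1:**
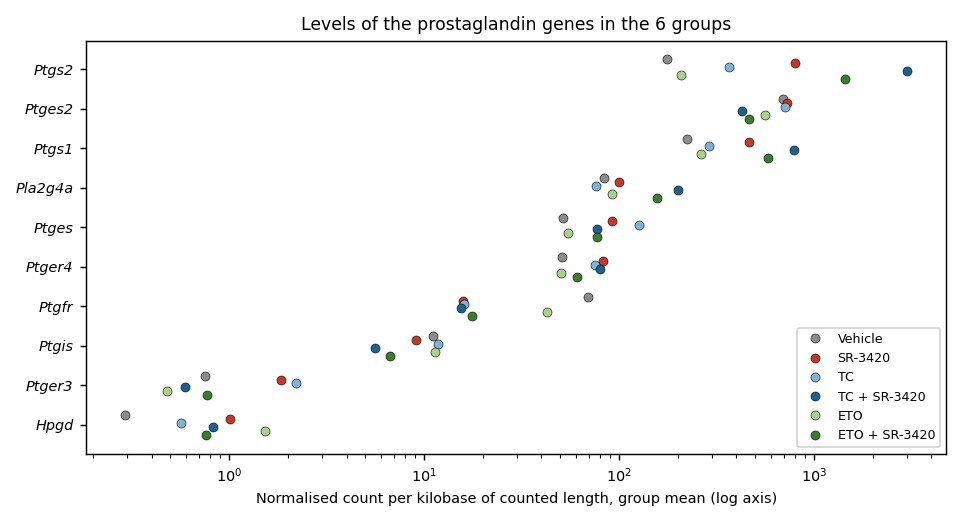
Group mean level of the 10 genes in normalised counts per kilobase of counted length, on a log axis, with a point for each of the 6 groups. Ptgs2 spans the widest range, from 177 in vehicle to 3009 in TC + SR-3420, and Ptger3 and Hpgd lie near or below 2.

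SR-3420 raised both cyclooxygenase genes in each of the 3 settings. Of the 6 tested genes that were not picked, 2 rose with SR-3420 against vehicle (Ptgs1 and Ptgs2), 3 with TC + SR-3420 against TC (Pla2g4a, Ptgs1 and Ptgs2) and 2 with ETO + SR-3420 against ETO (Ptgs1 and Ptgs2). None of the 6 fell in these comparisons. A gene was called at an adjusted p-value under 0.05 in edgeR's quasi-likelihood test. Over all 12786 genes tested, the shares called were 7.54% for SR-3420 against vehicle (4.75% higher, 2.79% lower), 36.9% within TC (17.3% higher, 19.7% lower) and 25.3% within ETO (12.5% higher, 12.8% lower). Scaling by library totals alone, tried after seeing the data, moved the median log2FC of all genes for SR-3420 against vehicle to -0.12 and turned the split from 607 higher and 357 lower into 467 higher and 572 lower, while Ptgs1 and Ptgs2 stayed called as higher. The median log2FC of the 6 genes was 0.49, 0.73 and 0.53 in the 3 comparisons, beside -0.0038, 0.02 and 0.01 over all genes tested.

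Pla2g4a encodes the cytosolic phospholipase that frees arachidonic acid. On mm9 the gene lies on chromosome 1 (151676752 to 151808414, minus strand, 18 exons). Its normalised counts were 188 and 288 in vehicle and 190 and 375 in SR-3420. The values were 218, 169 and 260 in TC against 444, 481 and 790 in TC + SR-3420, and 175, 230 and 379 in ETO against 270, 484 and 590 in ETO + SR-3420. The samples overlapped without an inhibitor and with etomoxir, and were apart with triacsin C, where the log2FC was 1.39 (SE 0.38, adjusted p = 0.0112), a 2.62-fold rise. This call did not hold without TC replicate 2 (adjusted p = 0.0528) or without TC + SR-3420 replicate 3 (adjusted p = 0.0552). Against vehicle the log2FC of SR-3420 was 0.27 (95% confidence interval -0.72 to 1.26, adjusted p = 0.788), and against etomoxir it was 0.79 (-0.01 to 1.60, adjusted p = 0.139). The response with triacsin C exceeded that without by 1.12 on the log2 scale (SE 0.59, adjusted p = 0.367), which does not separate the arms.

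Ptgs1 encodes the cyclooxygenase that most cells keep at a steady level. It lies on chromosome 2 (36085946 to 36107791, plus strand, 11 exons). Normalised counts of Ptgs1 were 651 and 626 in vehicle and 1279 and 1372 in SR-3420. In TC they were 908, 733 and 858, and in TC + SR-3420 they were 2338, 2238 and 2207. In ETO they were 700.1, 800 and 752, and in ETO + SR-3420 they were 1626, 1822 and 1527. Every sample with SR-3420 lay above every sample without it, over all groups, and the replicates of a group lay close together. The log2FC was 1.07 without an inhibitor (SE 0.14, adjusted p = 0.000638), 1.42 with triacsin C (SE 0.12, adjusted p = 3.6e-06) and 1.15 with etomoxir (SE 0.11, adjusted p = 2.21e-05), which are 2.10-, 2.67- and 2.22-fold rises. Fitted on the 4 samples of vehicle and SR-3420 alone, the first of these was not called (log2FC 1.04, adjusted p = 0.124).

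Ptgs2 encodes the inducible cyclooxygenase and had the largest log2FC of the 8 tested genes in each arm. It lies on chromosome 1 (151947254 to 151955142, plus strand, 10 exons), 139 kb from Pla2g4a with 0 genes of the table between them. Its normalised counts were 693 and 771 in vehicle and 2464 and 4175 in SR-3420. In TC they were 1398, 1558 and 1607, and in TC + SR-3420 they were 10483, 11864 and 15067. In ETO they were 538, 925 and 1109, and in ETO + SR-3420 they were 3907, 7327 and 6610. The groups with and without SR-3420 did not overlap, and the 3 TC + SR-3420 samples lay above all others. SR-3420 raised Ptgs2 4.59-fold without an inhibitor (log2FC 2.20, SE 0.36, adjusted p = 0.00270), 8.09-fold with triacsin C (log2FC 3.02, SE 0.31, adjusted p = 1.40e-05) and 7.01-fold with etomoxir (log2FC 2.81, SE 0.30, adjusted p = 4.01e-05). The rises of Ptgs1 and Ptgs2 went along with the fall in the summed fat cell markers and the rise in the summed preadipocyte markers given above, and their part in the result was not tested.

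**Figure D2:**
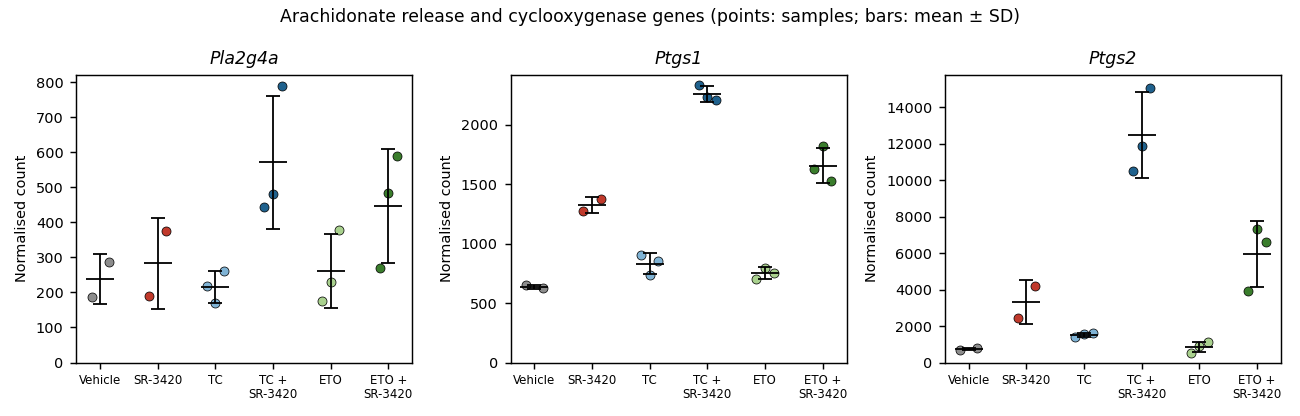
Normalised counts of Pla2g4a, Ptgs1 and Ptgs2 in each of the 16 samples, by group, with the group mean and SD as bars. For Ptgs1 and Ptgs2, every sample with SR-3420 lies above every sample without it, and TC + SR-3420 is the highest group.

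Whether blocking fatty acid activation or oxidation alters the cyclooxygenase response was asked in a pair of ways. The difference between responses to SR-3420 was not called for any of the 6 genes, with triacsin C against none, with etomoxir against none or with triacsin C against etomoxir, and 0 of them reached an unadjusted p-value under 0.05 in edgeR or were called by DESeq2. Over all genes tested, the main fit called 2.51%, 0% and 2.29% in these 3 tests of a difference. An unadjusted p-value under 0.05 was reached by 2130, 307 and 1596 of the 12786 genes, in that order. For Ptgs2 the response with triacsin C exceeded that without by 0.82 on the log2 scale (95% confidence interval -0.15 to 1.79, adjusted p = 0.387), and for Ptgs1 by 0.35 (-0.04 to 0.74, adjusted p = 0.352). The levels under SR-3420 were also compared directly. In TC + SR-3420 against SR-3420, where 4.58% of all genes were called and 1.02% as higher, Ptgs2 was 3.72-fold higher (log2FC 1.90, SE 0.34, adjusted p = 0.00759) and Ptgs1 1.69-fold higher (log2FC 0.75, SE 0.13, adjusted p = 0.00605), and the other 4 tested genes were not called. Both calls were lost without SR-3420 replicate 1 (adjusted p = 0.152 for Ptgs2 and 0.112 for Ptgs1) and in a fit of these groups alone (adjusted p = 0.0578 and 0.0764). The fat cell markers differed between the same groups, with 5 of 11 tested lower in TC + SR-3420.

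With triacsin C alone, the same pair of genes had higher values than in vehicle, but the main edgeR fit did not call them. In TC against vehicle, where 11.7% of all genes were called, the main edgeR fit called 0 of the 6 genes, 3 reached an unadjusted p-value under 0.05 and DESeq2 called 2. Over all genes, 3103 of 12786 reached an unadjusted p-value under 0.05 in the main fit, and DESeq2 called 1965 of 18777. The log2FC was 1.08 for Ptgs2 (SE 0.33, adjusted p = 0.0510), 0.41 for Ptgs1 (SE 0.13, adjusted p = 0.0592) and 0.59 for Ptger4 (SE 0.26, adjusted p = 0.178). For all 3 genes, each TC sample lay above both vehicle samples. DESeq2 called Ptgs2 (adjusted p = 0.0154) and Ptgs1 (adjusted p = 0.0211). The vehicle samples also serve the comparison of SR-3420 with vehicle, so these values are not independent of it. Etomoxir alone gave 0 calls among the 6 genes in edgeR and in DESeq2, with 0 at an unadjusted p-value under 0.05, in a comparison that called 0.0235% of all genes. There, 283 of all 12786 genes reached an unadjusted p-value under 0.05 in edgeR. In ETO + SR-3420 against SR-3420, which called 0.00782% of all genes, 0 of the 6 were called by either tool and 2 reached an unadjusted p-value under 0.05, Ptgs2 with a log2FC of 0.83 (adjusted p = 0.450) and Ptgs1 with 0.31 (adjusted p = 0.459). Over all genes tested there, 1279 of 12786 reached an unadjusted p-value under 0.05 in edgeR.

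The balance between the cyclooxygenases was read as the ratio of Ptgs2 to Ptgs1 per kilobase in each sample. It was 0.794 ± 0.0816 in vehicle and 1.72 ± 0.546 in SR-3420 (SD, n = 2 each). It was 1.28 ± 0.203 in TC and 3.83 ± 0.823 in TC + SR-3420, and 0.784 ± 0.245 in ETO and 2.48 ± 0.715 in ETO + SR-3420 (n = 3 each). The samples with SR-3420 lay above those without it within each arm. The ratio was above 1 in all 8 samples given SR-3420, and also in all 3 TC samples, at 1.06 to 1.47, and in 1 ETO sample, at 1.02. Whether it exceeds 1 rests on the length used, since with exonic length from the annotation the vehicle mean of Ptgs2 (177) lay above that of Ptgs1 (164). The ratio carries no test of its own here.

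Of the terminal synthases, Ptges was picked for its response. It encodes the inducible microsomal prostaglandin E synthase, which is often coupled to Ptgs2, and lies on chromosome 2 (30744991 to 30758817, minus strand, 3 exons). Its normalised counts were 205 and 174 in vehicle and 362 and 312 in SR-3420. In TC they were 429, 506 and 443, and in TC + SR-3420 they were 302, 299 and 237. SR-3420 was thus higher than vehicle and TC + SR-3420 lower than TC, with no overlap in either pair, and the log2FC was 0.85 and -0.74. TC stood above vehicle with a log2FC of 1.30. These values chose the gene. The etomoxir arm was not used in that choice and shares no sample with it: the counts were 216, 223 and 161 in ETO and 353, 259 and 236 in ETO + SR-3420. These samples did not overlap, and the log2FC of 0.50 (SE 0.18, adjusted p = 0.0608) did not pass the threshold in edgeR, whereas DESeq2 called it (adjusted p = 0.0396).

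Ptges2, which encodes another membrane-associated prostaglandin E synthase, was the most abundant of the 10 genes per kilobase in the groups without SR-3420. It lies on chromosome 2 (32251410 to 32258260, plus strand, 7 exons). Its replicates spread widely, at 1743 and 951 normalised counts in vehicle, 1838 and 1003 in SR-3420, and 1165, 1881 and 1095 in TC. In TC + SR-3420 they were 1053, 848 and 594, in ETO 1374, 1105 and 792, and in ETO + SR-3420 1251, 712 and 743. Only the TC and TC + SR-3420 samples were apart in a comparison of SR-3420 with its control, at a log2FC of -0.76 (SE 0.34, adjusted p = 0.101). The log2FC was 0.09 without an inhibitor (adjusted p = 0.931) and -0.27 with etomoxir (adjusted p = 0.609).

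Ptgis, the prostacyclin synthase gene, held only 5 to 30 counts per sample, so its values are coarse. It lies on chromosome 2 (167028696 to 167066037, minus strand, 10 exons). The samples held 22.2 and 16.7 normalised counts in vehicle and 17.8 and 13.9 in SR-3420. In TC they were 16.1, 27.9 and 17.7, in TC + SR-3420 17.1, 5.87 and 6.40, in ETO 22.6, 23.9 and 12.9, and in ETO + SR-3420 14.6, 9.95 and 10.6. The mean was lower with SR-3420 in each arm and the groups overlapped in each. The log2FC of -0.28, -1.05 and -0.74 had adjusted p-values of 0.785, 0.0621 and 0.190. Without TC + SR-3420 replicate 1, the fall in the triacsin C arm was called (log2FC -1.76, adjusted p = 0.00937).

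**Figure D3:**
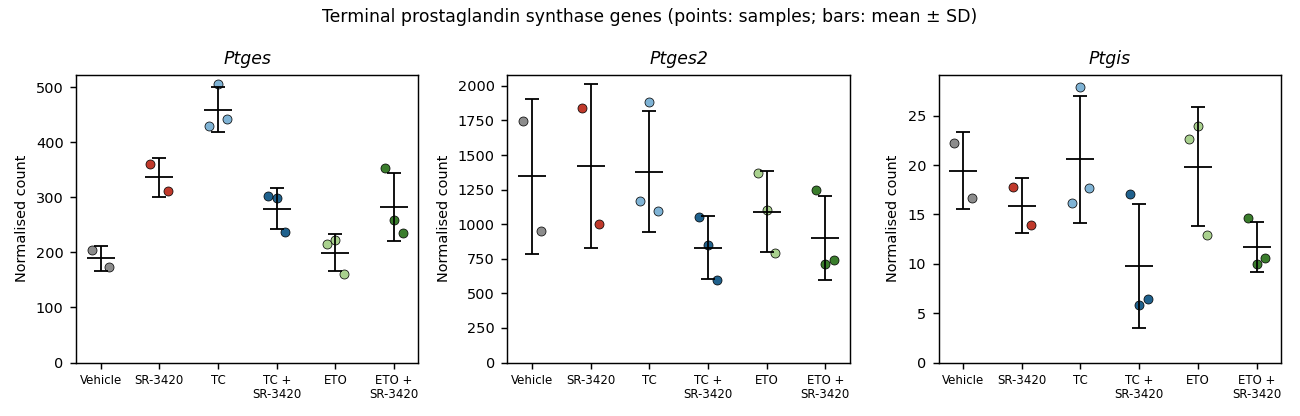
Normalised counts of the terminal synthase genes Ptges, Ptges2 and Ptgis in each of the 16 samples, by group, with the group mean and SD as bars. Ptges is highest in the 3 TC samples, at 429 to 506, and Ptges2 varies within groups as much as between them.

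Ptgfr, which encodes the receptor for prostaglandin F, was the other picked gene. It lies on chromosome 3 (151461574 to 151500492, minus strand, 3 exons). Its normalised counts were 269 and 346 in vehicle and 55.9 and 84.2 in SR-3420. In TC they were 70.3, 61.5 and 81.1, and in TC + SR-3420 they were 72.7, 61.0 and 70.4. The level was thus high in vehicle alone among these 4 groups and about equally low in the other 3. The log2FC was -2.11 for SR-3420 against vehicle, -2.09 for TC against vehicle, which uses the same vehicle samples, and -0.08 for TC + SR-3420 against TC. These values chose the gene and carry no test. In the etomoxir arm, which the choice did not use, the counts were 151, 182 and 231 in ETO and 64.7, 79.6 and 88.3 in ETO + SR-3420. There all 3 SR-3420 samples lay below all 3 controls, and Ptgfr fell 2.41-fold (log2FC -1.27, SE 0.21, adjusted p = 0.000833). This call held without each of the 6 samples in turn, with log2FC from -1.40 to -1.11. ETO itself stood at a log2FC of -0.72 against vehicle, a description only.

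Ptger4 encodes a prostaglandin E receptor that raises cAMP. It lies on chromosome 15 (5183399 to 5194187, minus strand, 3 exons). Normalised counts of Ptger4 were 185 and 156 in vehicle and 319 and 234 in SR-3420. In TC they were 264, 253 and 238, in TC + SR-3420 351, 251 and 198, in ETO 167, 193 and 146, and in ETO + SR-3420 222, 235 and 151. The SR-3420 samples lay above those of vehicle and the groups overlapped in both inhibitor arms. SR-3420 against vehicle gave a log2FC of 0.71 (SE 0.28, adjusted p = 0.143), TC + SR-3420 against TC 0.06 (95% confidence interval -0.42 to 0.54, adjusted p = 0.844) and ETO + SR-3420 against ETO 0.27 (-0.21 to 0.76, adjusted p = 0.414).

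Set against Ptger4, the share of Ptgfr in the sum of both, per kilobase, was 57.5% ± 7.25 in vehicle and 16.5% ± 6.80 in SR-3420 (SD, n = 2 each). It was 17.5% ± 2.58 in TC, 16.7% ± 3.94 in TC + SR-3420, 45.6% ± 7.75 in ETO and 23.0% ± 6.68 in ETO + SR-3420 (n = 3 each). Ptgfr supplied more than Ptger4 in both vehicle samples and less in every sample given SR-3420 or triacsin C. Since Ptgfr was picked on these groups, the share is a description.

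**Figure D4:**
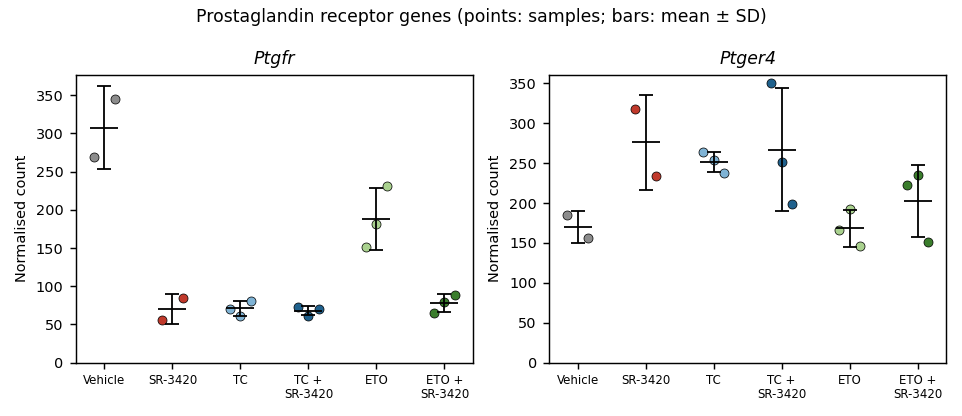
Normalised counts of the receptor genes Ptgfr and Ptger4 in each of the 16 samples, by group, with the group mean and SD as bars. Ptgfr is at 269 and 346 in vehicle, 151 to 231 in ETO and below 90 in every other sample.

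Ptger3, the Gi-coupled prostaglandin E receptor known from white fat, and Hpgd, the dehydrogenase that inactivates prostaglandins, were close to absent and were not tested. Ptger3 (chromosome 3, 157229856 to 157307722, plus strand) held 0 to 9 counts per sample, 38 in all, with 5 samples at 0. Hpgd (chromosome 8, 58773349 to 58799843, plus strand) held 0 to 7 counts, 26 in all, with 6 samples at 0. A count of 0 in a library allows up to 3 counts, or 0.117 to 0.317 CPM over these samples. A change in either gene was not detectable at this depth.

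**Figure D5:**
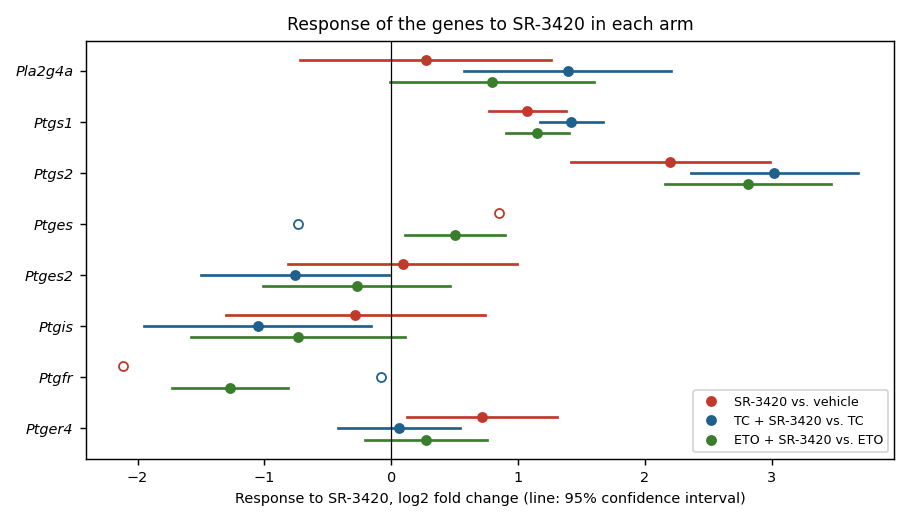
Response to SR-3420 as log2FC for the 8 tested genes without an inhibitor, within TC and within ETO, with lines for 95% confidence intervals and open points without intervals where the gene was picked on that comparison. Ptgs1 and Ptgs2 lie above 0 with their intervals in all 3 arms, and Ptgfr lies at -2.11, -0.08 and -1.27.

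The genes most like Ptgs2, Ptgfr and Ptges over the 16 samples were looked up among 10694 genes by Pearson's r of log2 CPM. These correlations share libraries and the group structure and are a description. Ptgs2 was closest to Tgif1 (r = 0.992), Pdpn (r = 0.989) and Timp1 (r = 0.987), and the mean normalised count of Tgif1 went from 302 in vehicle and 1039 in SR-3420 to 507 in TC and 2077 in TC + SR-3420. Ptgfr was closest to Tcp11l2 (r = 0.946), Ints10 (r = 0.939) and Pik3r1 (r = 0.930), the last of which encodes a regulatory subunit of phosphoinositide 3-kinase. Pik3r1 was at 3685 in vehicle and 3241 in ETO and between 1606 and 2130 in the other 4 groups. Ptges was closest to Zbtb39 (r = 0.946), Tut1 (r = 0.945) and Dynll1 (r = 0.933). Dynll1 was highest in TC, at 2377 against 1191 in vehicle and 1651 in TC + SR-3420, as Ptges was.

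Beyond the 10 genes, 51 others of prostaglandin and related eicosanoid metabolism were in the table and 27 were tested. By role, 4 of 13 genes of arachidonic acid release passed the filter on low counts, 4 of 7 terminal synthases, 4 of 6 receptors, all of the receptor partner, transport, inactivation and epoxide genes (1, 2, 4 and 4), 4 of 10 lipoxygenase pathway genes and 0 of 4 leukotriene receptors. With SR-3420 against vehicle 3 rose and 3 fell, within TC 4 rose and 11 fell, within ETO 4 rose and 8 fell, and with TC against vehicle 2 rose and 2 fell. Their median log2FC was 0.04, -0.35, -0.16 and 0.22, beside -0.0038, 0.02, 0.01 and 0.07 over all genes tested, of which 4.77% rose and 6.94% fell with TC against vehicle. Over all genes tested, 4.75% rose and 2.79% fell with SR-3420 against vehicle, 17.3% and 19.7% within TC and 12.5% and 12.8% within ETO. Fewer of the other pathway genes were called with SR-3420 against vehicle when vehicle replicate 2, vehicle replicate 3 or SR-3420 replicate 1 was left out. Each of these fits leaves 1 sample in a group, and calls over all genes became fewer as well.

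Among receptors and transporters, Ptgir and Slco2a1 rose with SR-3420 in every arm. Ptgir, the prostacyclin receptor, had mean normalised counts of 95.9 ± 35.6 in vehicle, 261 ± 73.3 in SR-3420, 206 ± 24.8 in TC, 442 ± 63.9 in TC + SR-3420, 90.3 ± 20.6 in ETO and 196 ± 62.0 in ETO + SR-3420. Its log2FC was 1.45 without an inhibitor (SE 0.34, adjusted p = 0.0204), 1.08 with triacsin C (SE 0.27, adjusted p = 0.00685) and 1.12 with etomoxir (SE 0.28, adjusted p = 0.00938), and it was also higher in TC than in vehicle (log2FC 1.12, adjusted p = 0.0355). Slco2a1, which carries prostaglandins into cells, rose by 1.00 (adjusted p = 0.0349), 0.88 (adjusted p = 0.00589) and 1.05 (adjusted p = 0.00325) on the log2 scale. Ptgfrn, a membrane protein that binds the Ptgfr product and dampens it, rose by 0.50 within TC (adjusted p = 0.0290) and 0.59 within ETO (adjusted p = 0.0180) and stood at 0.67 against vehicle (adjusted p = 0.0624). The calls of Ptgir and Slco2a1 without an inhibitor were both lost in a fit of vehicle and SR-3420 alone, which left 0 higher calls among the pathway genes. Both were also lost without vehicle replicate 3 or without SR-3420 replicate 1, and they did not both hold without vehicle replicate 2. Each fit that leaves out a sample of these groups leaves 1 sample in a group. Tbxa2r, the thromboxane receptor, is named after its values were seen, because it completes the small count of genes that rose. Its 3 to 88 counts per sample gave means of 9.27 in vehicle, 51.3 in SR-3420, 46.8 in TC, 64.5 in TC + SR-3420, 8.27 in ETO and 41.3 in ETO + SR-3420. It rose with SR-3420 against vehicle (log2FC 2.44, SE 0.59, adjusted p = 0.0243), with ETO + SR-3420 against ETO (log2FC 2.27, SE 0.49, adjusted p = 0.00430) and with TC against vehicle (log2FC 2.32, SE 0.57, adjusted p = 0.0166), and within TC it stood at 0.43 (adjusted p = 0.432). The call of Tbxa2r with SR-3420 against vehicle was lost in a fit of those groups alone and without vehicle replicate 3 or SR-3420 replicate 1.

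Abcc4, an exporter of prostaglandins and other anions, differed in direction between arms. Its mean normalised counts were 526 ± 31.0 in vehicle and 316 ± 14.3 in SR-3420 (SD, n = 2 each), 203 ± 9.60 in TC and 313 ± 27.0 in TC + SR-3420, and 581 ± 15.7 in ETO and 318 ± 32.9 in ETO + SR-3420 (n = 3 each). The group means under SR-3420 lay between 313 and 318, and those without it between 203 and 581. It fell with SR-3420 against vehicle (log2FC -0.72, SE 0.14, adjusted p = 0.00786) and within ETO (-0.86, SE 0.12, adjusted p = 0.000185), rose within TC (0.60, SE 0.12, adjusted p = 0.00140), and was lower in TC than in vehicle (-1.35, SE 0.13, adjusted p = 1.76e-05). Fitted on the vehicle and SR-3420 samples alone, the fall of Abcc4 against vehicle was not called.

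Of the 4 tested inactivation genes (Zadh2, Cbr1, Ptgr2 and Ptgr1), 1 fell with SR-3420 against vehicle, 3 within TC and 2 within ETO, and 0 rose. Over all genes tested, 2.79%, 19.7% and 12.8% fell and 4.75%, 17.3% and 12.5% rose in these comparisons. Zadh2, a prostaglandin reductase, fell by 0.71, 1.20 and 0.81 on the log2 scale without an inhibitor, within TC and within ETO (adjusted p = 0.00732, 9.39e-06 and 0.000240). Ephx1, an epoxide hydrolase, fell by 0.77, 1.14 and 0.81 (adjusted p = 0.00347, 1.03e-05 and 0.000195). Both were lower in every sample with SR-3420 than in the controls of the same arm. Fitted on the vehicle and SR-3420 samples alone, neither fall against vehicle was called. Ephx2, which hydrolyses epoxides of arachidonic acid, Cbr1, a carbonyl reductase that acts on prostaglandins, Ltc4s, the leukotriene C synthase, and Mgll, which frees arachidonic acid from monoacylglycerol, fell within TC and within ETO. Their log2FC within TC was -1.32, -1.49, -1.76 and -0.82 (adjusted p = 9.16e-05, 0.000299, 0.00161 and 0.00196), and against vehicle SR-3420 gave -0.60, -0.39, -0.24 and -0.18 (adjusted p = 0.106, 0.467, 0.792 and 0.662). Mgll was also lower in TC than in vehicle (log2FC -1.06, adjusted p = 0.00183). Ptgr2, another prostaglandin reductase, and Pla2g6, a calcium-independent phospholipase, fell within TC (log2FC -1.09 and -0.84, adjusted p = 0.00973 and 0.0217). Their log2FC within ETO was -0.76 and -0.68 (adjusted p = 0.0706 and 0.0718). Ptgr1, a reductase that inactivates leukotriene B and prostaglandins and is named after its values were seen, had a log2FC of 0.41 within TC (adjusted p = 0.0503) and 0.38 within ETO (adjusted p = 0.0850). The remaining calls, named after their values were seen, were Ptgds and Fam213b, lower within TC, and Cyp2j9, lower in both inhibitor arms. Ptgds, a prostaglandin D synthase, held 18 to 34 counts in TC and 0 to 4 in TC + SR-3420, Fam213b, a prostaglandin F synthase, 45 to 97 and 23 to 41, and Cyp2j9 at most 20 in any sample. These falls went along with the lower summed fat cell markers in the same groups, whose part in them was not tested.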

How the data were processed

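RNA-seq of total RNA (TruSeq) was analysed in 16 samples of 6 groups. The authors aligned reads with STAR 2.4.2a to mm9, kept 1 read per position and length with HOMER and counted reads over genes with iRNA-seq. The whole-number counts of 20295 genes were deposited without normalization. Keeping 1 read per position limits the counts of short, abundant genes. Strand use in counting is not given in the sources used here, but no other gene of the table overlaps the 10 genes.

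Samples were grouped by their labels. Differential expression was tested with edgeR 4.0.16 (R 4.3.3): TMM factors, filterByExpr (12786 genes), a quasi-likelihood fit in which the 6 groups each had their own mean, and Benjamini-Hochberg adjustment over all genes tested. Starts were counted from 0 in the table and are given from 1. DESeq2 1.42.0 supplied size factors for the normalised counts and an alternative test. Exon numbers are from an mm9 annotation. Scripts were tested on simulated data.

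The members and lists were chosen with earlier results of these data known. Named genes were the 10 members, at most 12 other pathway genes with an adjusted p-value under 0.05 in at least 1 of 4 comparisons (the 3 of SR-3420 within an arm and TC against vehicle) and a mean normalised count of at least 50, and the 3 genes with the highest correlation to Ptgs2, Ptgfr and Ptges (log2 CPM, prior count 2). Alternatives were another tool, DESeq2 size factors, library totals, other filters on low counts, the replicate number as a block, a fit of the compared groups only, a log2FC of at least 1, another gene length and leaving out each sample. The p-values measure the spread between these samples, and floors cover counting error only.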

Additional observations from a re-analysis of the deposited data

Results flagged for a closer look

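Abcc4, the exporter, was the only tested pathway gene, members included, whose response to SR-3420 differed between arms by a test of the difference itself. Over all genes tested, 2.51% differed between triacsin C and no inhibitor and 2.29% between triacsin C and etomoxir. A count of 1 among 27 other pathway genes is near these shares. With the replicate number as a block, Pla2g4a was also called for triacsin C against no inhibitor (adjusted p = 0.0393). The response with triacsin C exceeded that without an inhibitor by 1.32 on the log2 scale (SE 0.18, adjusted p = 0.00332) and that with etomoxir by 1.47 (SE 0.16, adjusted p = 0.000881) in edgeR's test. All 3 TC + SR-3420 samples lay above the 3 TC samples, whereas SR-3420 samples lay below their controls in the other arms. Ptgfr and Ptges were not tested for such a difference, because it was what they were picked for.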

How the results depend on the processing

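No called result changed direction under these alternatives. Fitting only the groups compared gave 1 member and 0 other pathway genes called with SR-3420 against vehicle, 7 other pathway genes within ETO, 1 member with TC against vehicle and 0 with TC + SR-3420 against SR-3420. Over all genes, this fit called 46 of 12162, 1205 of 12167, 1475 of 12371 and 78 of 12295 in these comparisons, in order. The main fit called 964, 3234, 1497 and 585 of 12786. Requiring a log2FC of at least 1 left 3 other pathway genes with SR-3420 against vehicle, 6 within ETO and 1 member with TC + SR-3420 against SR-3420. DESeq2 and a minimum of 10 counts in every sample each called 2 members with TC against vehicle, where they called 1965 of 18777 and 1376 of 11256 genes over all. Leaving out 1 sample gave 2 to 4 members within TC, 0 to 1 with TC against vehicle and 0 to 2 with TC + SR-3420 against SR-3420, and 2 to 4 other pathway genes with SR-3420 against vehicle, 12 to 15 within TC, 9 to 14 within ETO and 2 to 4 with TC against vehicle. The call with TC against vehicle was Ptgs1 without TC replicate 2 (adjusted p = 0.0420), and the 2 other pathway genes there were left without vehicle replicate 3 or TC replicate 2. Calls over all genes were also fewer with each sample left out in these comparisons. The causes were not tested. Length from the annotation lowered the vehicle level per kilobase of Pla2g4a to 37.2, Ptgs1 to 164, Ptger4 to 25.6 and Ptgis to 7.58.

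The replicate number as a block called 5 members within TC (Ptges2 and Ptgis as lower were added), 3 with TC against vehicle, 4 with TC + SR-3420 against SR-3420, 3 with ETO + SR-3420 against SR-3420 and 1, Pla2g4a, for the difference between responses with and without triacsin C. Calls also rose over all 12786 genes tested. In these comparisons, in order, the block called 7185, 3072, 3008, 1838 and 1669 genes, against 4722, 1497, 585, 1 and 321 without it. The block also called Ptger4 with SR-3420 against vehicle (adjusted p = 0.0252) and, within ETO, Pla2g4a (adjusted p = 0.00224) and Ptges (adjusted p = 0.00712). There it called 2438 and 5776 genes over all, against 964 and 3234 without it. Samples of the same number deviated together with a mean r of 0.41 over 35 pairs, against -0.20 over 71 pairs of different numbers. Deviations were taken from each group's own mean, which ties both values together, so the -0.20 is not an independent baseline. The pairs share samples and are not independent. Of the 35, 27 were over 0.1, and every remaining pair involved TC replicate 1 or ETO + SR-3420 replicate 2. The numbers may thus mark samples handled together, which the labels do not state. The main fit leaves them out, so its calls ignore any such pairing. Depth limits Ptger3, Hpgd and Ptgis.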
